A study of Mus musculus with 12 samples.

Results

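Claudins are the membrane proteins that form the strands of tight junctions. Here 10 claudin genes (Cldn1, Cldn2, Cldn3, Cldn4, Cldn5, Cldn7, Cldn8, Cldn10, Cldn12 and Cldn23) were followed in organoids of the mouse mammary gland. They were taken by gene symbol from a deposited count table of 25210 genes, and each had 1 row. All 10 passed the filter on low counts, which left 15316 genes. The organoids were primary epithelial fragments of virgin FVB/N females aged 8 to 11 weeks, with no engineered allele named in the labels. They were embedded in Matrigel with reduced growth factors and kept in minimal medium for 7 days. The solvent dimethyl sulfoxide (DMSO) served as the control group, and 3 further groups received 1, 1.5 or 3 µM of CHIR99021. This compound blocks GSK3, a kinase that marks β-catenin (CTNNB1) for degradation, and so raises WNT signalling. The labels give 3 cultures from 3 animals, each split over all 4 treatments, which makes 12 libraries of polyadenylated RNA and 3 per group. The replicate number is called the culture here. The sample titles also tag the cultures as med, min and max, in order of their number, without stating what this means. Any difference behind these tags cannot be told apart from a difference between animals. The design asks how expression changes as the WNT/CTNNB1 pathway is activated more strongly.

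Tight junctions close the gap between neighbouring epithelial cells near their apical side, and the mix of claudins in the strands sets which ions and molecules can pass. Some claudins, such as Cldn1, Cldn3, Cldn4, Cldn5 and Cldn8, are known mainly as barrier formers, while Cldn2, Cldn10 and Cldn15 form channels for small ions or water. Most claudins end in a short tail that binds scaffold proteins such as ZO-1, the product of Tjp1. In the mammary gland, tight junctions lie between luminal cells and keep milk and interstitial fluid apart. Endothelial cells have tight junctions of their own, in which Cldn5 is the main claudin.

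Library totals ran from 10.13 to 24.49 M counts (M, mega). Axin2, a feedback target of WNT/CTNNB1 signalling, was used to check the treatment. Its level in counts per M counts (CPM, with library sizes adjusted by edgeR's TMM factors) was 2.26 to 3.24 in DMSO, and 5.85 to 19.5, 18.0 to 49.3 and 52.4 to 132.0 with rising dose. The groups were ordered by dose, with an overlap only between 1 and 1.5 µM. The labelled tissue was also checked against marker lists. Luminal markers summed to 2893.9 to 4916.4 CPM in DMSO and 1868.0 to 1961.9 CPM at 3 µM, where 6 of 10 fell. Of 9 basal or myoepithelial markers, the keratins Krt5, Krt14 and Krt17 and the factor Trp63 rose at 3 µM, while the contractile genes Acta2, Myh11, Cnn1 and Mylk and the oxytocin receptor Oxtr fell. All 10 markers of squamous epithelium rose, from sums of 69.7 to 88.7 CPM to sums of 2145.4 to 18622.7 CPM. RNA of other cell types was present as well. Fibroblast markers summed to 2092.3 to 21510.8 CPM in DMSO and 220.7 to 4909.5 CPM at 3 µM (1 of 8 fell), and immune markers to 260.8 to 2597.6 and 41.0 to 121.0 CPM (5 of 6 tested fell). Markers counted as risen or fallen at 3 µM had an edgeR adjusted p under 0.05 against DMSO, as did 29.9% (higher) and 27.7% (lower) of all genes tested. These are bulk libraries, in which fewer cells of a type and less RNA per cell cannot be told apart.

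At 3 µM, 8 of the 10 claudins differed from DMSO at an adjusted p under 0.05 (edgeR quasi-likelihood test, Benjamini-Hochberg adjustment over all 15316 genes), 5 of them higher and 3 lower. Over all genes 57.5% passed, with 29.9% higher and 27.7% lower, so most genes moved at this dose and a call of a claudin is read against that share. The claudins that rose were Cldn4, Cldn1, Cldn23, Cldn7 and Cldn12, and those that fell were Cldn2, Cldn10 and Cldn5. Cldn3 and Cldn8 did not pass. The median log2 fold change of the 10 was 0.64, against -0.03 over all genes tested. The 3 libraries at 3 µM did not overlap the 3 DMSO libraries for 8 of the 10 claudins, against 60.8% of all genes. The common biological coefficient of variation was 0.305, and with culture as a block it was 0.156. Without culture 2 in any group, the count at 3 µM was 2 (Cldn2 and Cldn12). Without the library of culture 2 at 3 µM it was 5. With library size as the sole scaling it was 5, where 57.4% of all genes passed. The share of all genes is not given here for the fits with libraries left out, so those counts cannot be read against it.

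**Figure D1:**
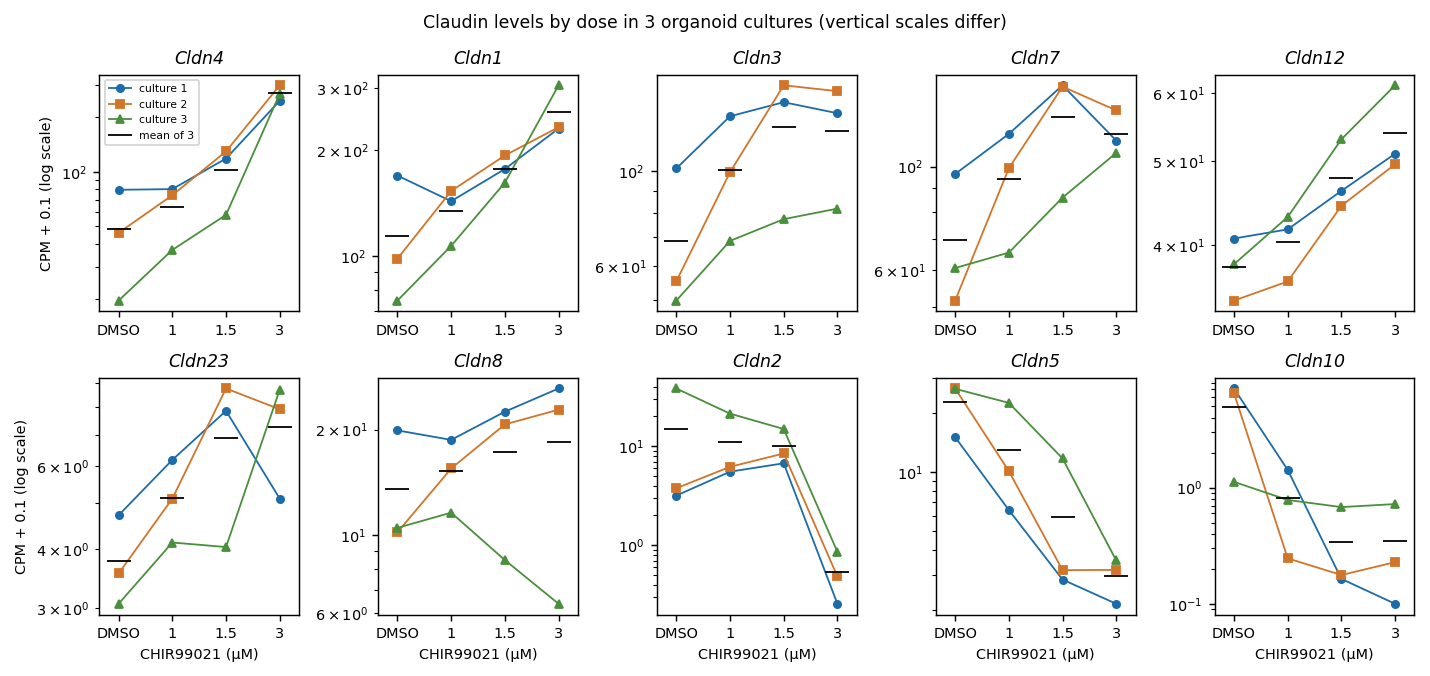
Level of each of the 10 claudins in the 12 libraries, as CPM plus 0.1 on a log axis, against the dose of CHIR99021 (DMSO, 1, 1.5 and 3 µM). Lines join the libraries of 1 culture and black bars are means of 3, and the vertical scales differ between panels. Cldn4 and Cldn12 rise at every step in each culture, Cldn2 drops between 1.5 and 3 µM in each, and culture 3 parts from the other cultures in Cldn8 and Cldn10.

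The promoters of the 2 claudins with the largest rise and of the one with the largest fall in the fit at 3 µM are shown here, as the ends of the range of fold changes. Each run is the 250 bases before the gene's RefSeq start site (GRCm38.p6), written 5′ to 3′ on the gene's own strand. The capitals mark matches to short motifs: CTTTGA or CTTTGT, the core that TCF and LEF factors of the WNT pathway bind; CACCTG, an E-box bound by SNAI and ZEB factors; and TATAAA, the TATA box. The first 3 motifs were searched on both strands and TATAAA on the gene's strand, and no marked matches overlap one another.
Cldn4 (chr5:134946935-134947184, minus strand): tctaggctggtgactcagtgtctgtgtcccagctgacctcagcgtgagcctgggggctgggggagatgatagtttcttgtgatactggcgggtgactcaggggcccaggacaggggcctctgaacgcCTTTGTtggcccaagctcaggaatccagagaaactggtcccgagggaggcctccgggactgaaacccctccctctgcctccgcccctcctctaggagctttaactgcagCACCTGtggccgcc
Cldn1 (chr16:26371840-26372089, minus strand): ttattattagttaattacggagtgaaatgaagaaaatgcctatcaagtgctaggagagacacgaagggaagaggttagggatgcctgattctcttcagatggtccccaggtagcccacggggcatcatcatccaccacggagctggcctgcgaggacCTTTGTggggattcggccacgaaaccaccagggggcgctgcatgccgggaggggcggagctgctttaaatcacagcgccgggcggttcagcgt
Cldn2 (chrX:139800558-139800807, plus strand): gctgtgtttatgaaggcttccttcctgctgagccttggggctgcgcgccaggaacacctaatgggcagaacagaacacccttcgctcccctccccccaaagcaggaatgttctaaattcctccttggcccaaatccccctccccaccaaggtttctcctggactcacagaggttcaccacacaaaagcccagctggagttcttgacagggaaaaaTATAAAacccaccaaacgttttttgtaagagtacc
The Cldn4 window holds CTTTGT starting 123 bases and CACCTG starting 14 bases before the start site. The Cldn1 window holds CTTTGT starting 93 bases before it, and the Cldn2 window holds TATAAA starting 35 bases before it. Of all 32817 RefSeq windows of this length, 27.6% hold the TCF/LEF core, 17.2% the E-box and 7.6% TATAAA, so a match to the TCF/LEF core or the E-box is common. Of the 8 claudins with a window in the table, Cldn10 also has the TCF/LEF core in 1 of its 2 windows and Cldn7 has 2 E-boxes in 1 of its 2 windows. The core of the GRHL factors, AACCGGTT, is in 0.116% of all windows and in none of the claudin windows. These matches describe the letters of the windows and were not tested as binding sites.

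Cldn4, a barrier former of many glandular and stratified epithelia, had the largest rise. Its gene is a single exon on chromosome 5 (chr5:134945126-134946934 in the deposited table, minus strand; ENSMUSG00000047501). It stood at 79.5, 46.0 and 19.4 CPM in the DMSO libraries of cultures 1, 2 and 3, and at 80.2, 74.2 and 37.0 CPM at 1 µM. At 1.5 µM the values were 118.3, 129.6 and 57.8 CPM, and at 3 µM they were 246.4, 299.9 and 269.0 CPM. All 3 libraries at 3 µM lay above all other libraries, and the spread between cultures that was visible in DMSO was smaller there. At 3 µM the log2 fold change was 2.49 ± 0.499 (SE; 5.62-fold, edgeR adjusted p = 0.00187, higher in 3 of 3 cultures). Leaving culture 2 out of all groups gave 2.38 and an adjusted p of 0.0633, and leaving out culture 1 gave 3.13 (0.00863). Squamous markers rose in the same libraries, with sums at 3 µM of 18622.7, 14604.7 and 2145.4 CPM in cultures 1, 2 and 3, and their part in the rise of Cldn4 was not tested. Between 1.5 and 3 µM Cldn4 rose by a further 1.41 ± 0.48 (edgeR adjusted p = 0.0492). That call is narrow, since 14 of 21 alternatives lost it, among them leaving out any one library at 1.5 or 3 µM (adjusted p from 0.0725 to 0.14), the DMSO library of culture 2 (0.0664) and the 1 µM library of culture 1 (0.0607) or 2 (0.0671). All of the fits that lost it were without culture as a block, and with the block the call was kept.

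Cldn1, the claudin whose loss in mice breaks the water barrier of the skin, rose as well. The gene lies on chromosome 16 (chr16:26356642-26371841, minus strand; ENSMUSG00000022512). In cultures 1, 2 and 3 it stood at 169.3, 98.2 and 74.6 CPM in DMSO, at 143.1, 153.0 and 106.8 CPM at 1 µM, at 176.7, 193.1 and 161.6 CPM at 1.5 µM and at 230.3, 232.4 and 305.8 CPM at 3 µM. The group at 3 µM did not overlap DMSO, and culture 3 went from the lowest DMSO value to the highest value at 3 µM. This gave a log2 fold change of 1.17 ± 0.27 (edgeR adjusted p = 0.00421, higher in 3 of 3 cultures), and without culture 2 it was 1.13 (adjusted p = 0.0799).

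Cldn3 and Cldn7 are widespread barrier claudins of glandular epithelium, and Cldn7 is also known to bind the adhesion protein EpCAM at the lateral membrane. Cldn3 is a single exon on chromosome 5 (chr5:134986214-134987472, plus strand; ENSMUSG00000070473), next to Cldn4, and an exon of Wbscr25 lies on its opposite strand. Whether counting used the strand is not given in the sources used here, so reads of these overlapping genes may not be told apart. Cldn3 stood at 101.2, 55.2 and 49.8 CPM in DMSO and at 136.1, 153.2 and 81.6 CPM at 3 µM, with 133.9, 99.2 and 68.6 CPM at 1 µM and 144.4, 158.1 and 77.1 CPM at 1.5 µM. It was higher than DMSO in all 3 cultures at each dose, but each dose group overlapped the DMSO group, in which culture 1 was highest. Its log2 fold change at 3 µM was 0.84 ± 0.381 (edgeR adjusted p = 0.0808). With culture as a block it was 0.85 with an adjusted p of 0.00298. Leaving out the DMSO library of culture 1 (adjusted p = 0.0242) or the 3 µM library of culture 3 (0.0462) also brought it past the threshold.

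Cldn7 (chr11:69964779-69967885, plus strand; ENSMUSG00000018569) stood at 96.3, 51.5 and 60.5 CPM in DMSO, 117.4, 99.1 and 65.3 CPM at 1 µM, 149.3, 148.3 and 85.7 CPM at 1.5 µM and 113.6, 131.9 and 106.9 CPM at 3 µM. Cultures 1 and 2 were highest at 1.5 µM and culture 3 at 3 µM. At 3 µM the log2 fold change was 0.76 ± 0.295 (edgeR adjusted p = 0.0485). This call sat at the threshold and was lost in 14 of 21 alternatives, all of them fits without culture as a block. With the block it was kept. Without the DMSO library of culture 2 or 3 the adjusted p was 0.17 or 0.154, without the 1 µM library of culture 2 it was 0.0642, and without the 1.5 µM library of culture 1 or 2 it was 0.0558 or 0.0577. Without the 3 µM library of culture 1, 2 or 3 it was 0.0937, 0.143 or 0.0683.

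Cldn12 and Cldn23 are less typical family members, and Cldn12 lacks the tail that binds the ZO scaffolds. Cldn12 (chr5:5505015-5514958, minus strand; ENSMUSG00000046798) varied little between cultures, at 40.6, 34.4 and 37.9 CPM in DMSO, 41.6, 36.2 and 43.0 CPM at 1 µM, 46.1, 44.3 and 52.9 CPM at 1.5 µM and 50.9, 49.5 and 61.1 CPM at 3 µM. Its rise was small and regular. At 3 µM its log2 fold change was 0.52 ± 0.117 (edgeR adjusted p = 0.00365). It kept the call in 20 of 21 alternatives, and the exception was library size as the sole scaling (0.32, adjusted p = 0.0655). Cldn4 and Cldn12 were the members that rose at every dose step in all 3 cultures, a pattern shown by 9.48% of all genes tested.

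Cldn23 (chr8:35824709-35826559, minus strand; ENSMUSG00000055976) was a low-level member, with 3.68 ± 0.852 CPM in DMSO, then 5.05 ± 1.03, 6.8 ± 2.52 and 7.16 ± 1.9 CPM with rising dose (SD, n = 3). The 3 µM libraries stood at 5.02, 7.83 and 8.63 CPM, all above the highest DMSO library at 4.62 CPM. This was a log2 fold change of 0.96 ± 0.336 (edgeR adjusted p = 0.0319). This call was lost in 9 of 21 alternatives, all of them fits without culture as a block, and with the block it was kept. Without the DMSO library of culture 2 or 3 the adjusted p was 0.089 or 0.117, and without the 3 µM library of culture 2 or 3 it was 0.0912 or 0.0955. It was 0.235 without all libraries of culture 2 and 0.0869 with library size as the sole scaling.

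Cldn8, known from the distal nephron as a barrier to cations, differed in direction between cultures at 3 µM. Its gene is a single exon on chromosome 16 (chr16:88560828-88563183, minus strand; ENSMUSG00000050520). It was at 19.8, 10.1 and 10.4 CPM in DMSO, 18.6, 15.4 and 11.5 CPM at 1 µM, 22.4, 20.6 and 8.4 CPM at 1.5 µM and 26.1, 22.7 and 6.28 CPM at 3 µM. Cultures 1 and 2 were higher at 3 µM than in DMSO, and culture 3 was lower. A log2 fold change of 0.45 ± 0.525 at 3 µM did not pass the test (edgeR adjusted p = 0.487).

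**Figure D2:**
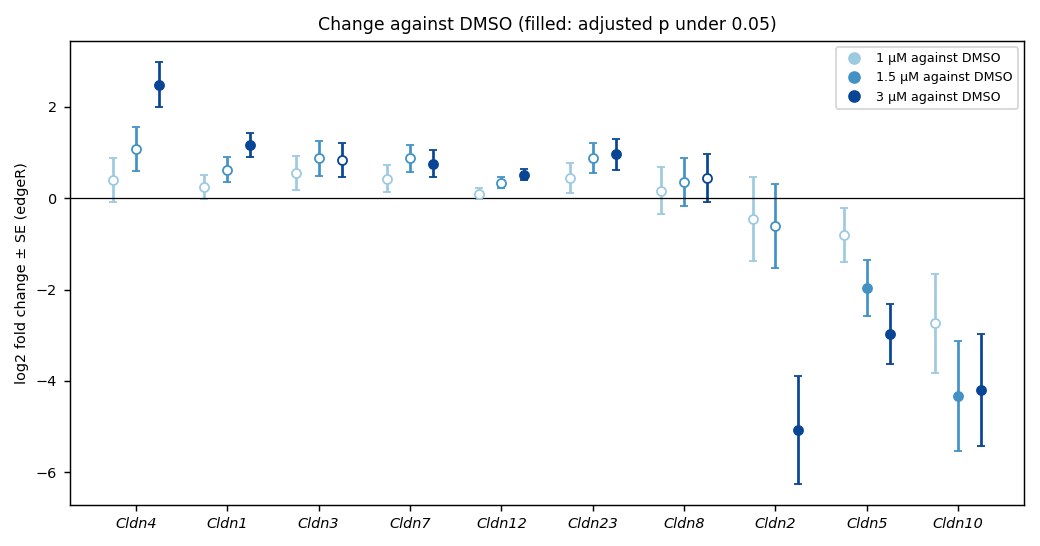
Log2 fold change against DMSO with its SE (edgeR) for each claudin at 1, 1.5 and 3 µM, from light to dark, with filled points for an adjusted p under 0.05. No point is filled at 1 µM, 2 are filled at 1.5 µM (Cldn5 and Cldn10) and 8 at 3 µM, where Cldn4 is highest at 2.49 and Cldn2 lowest at -5.07.

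Cldn2, which forms channels for small cations and water in leaky epithelia, had the largest fall in the fit of all libraries, and it fell between 1.5 and 3 µM in every culture. Its gene is on the X chromosome (chrX:139800828-139811386, plus strand; ENSMUSG00000047230). In cultures 1, 2 and 3 it stood at 3.07, 3.66 and 38.1 CPM in DMSO, 5.43, 6.09 and 21.2 CPM at 1 µM, 6.62, 8.34 and 14.8 CPM at 1.5 µM and 0.157, 0.385 and 0.759 CPM at 3 µM. The last values rest on 2, 6 and 11 counts. Up to 1.5 µM the cultures went different ways: cultures 1 and 2 stood above their own DMSO library, by 1.0 and 1.09 on the log2 scale at 1.5 µM (on CPM plus 0.5), and culture 3 stood below its own by 1.34. At 3 µM all 3 were low.

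The log2 fold change of Cldn2 was -5.07 ± 1.18 at 3 µM against DMSO (33.6-fold lower, edgeR adjusted p = 0.00443, lower in 3 of 3 cultures) and -4.47 ± 1.17 at 3 against 1.5 µM (edgeR adjusted p = 0.0176). The first call held in all 21 alternatives, but its size rested on culture 3. Without the DMSO library of culture 3 it was -2.95 (edgeR adjusted p = 0.0103), without all libraries of that culture -3.56 (0.00044) and without its 3 µM library -5.72 (0.0112). Within cultures 1 and 2 the log2 ratios of 3 µM to DMSO (on CPM plus 0.5) were -2.44 and -2.23 for Cldn2. They were -3.91 and -3.46 for Cldn10 and -2.6 and -2.91 for Cldn5. The added 0.5 CPM limits the fall that a gene with a low DMSO level can show. These ratios therefore do not order the genes by the size of their fall. The call at 3 against 1.5 µM was lost without the 3 µM library of culture 1 (adjusted p = 0.0622) or 2 (0.0658) and without all libraries of culture 1 (0.09) or 2 (0.163). At 1.5 µM against DMSO the value for Cldn2 was -0.60 (edgeR adjusted p = 0.66) with all cultures and 1.18 (adjusted p = 0.0256) without culture 3. Culture 3 had the most Cldn2 at every dose and also the most fibroblast marker RNA at every dose, with sums of 21510.8, 20348.9, 12141.7 and 4909.5 CPM from DMSO to 3 µM, against 220.7 to 8455.4 CPM in the other cultures. The part of that RNA in the Cldn2 values was not tested.

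Cldn10, whose isoforms make channels for anions or cations, was scarce and fell from the lowest dose on in 2 cultures. The gene is on chromosome 14 (chr14:118787908-118875489, plus strand; ENSMUSG00000022132). It stood at 7.02, 6.4 and 1.02 CPM in DMSO, 1.32, 0.146 and 0.682 CPM at 1 µM, 0.0637, 0.0768 and 0.579 CPM at 1.5 µM and 0, 0.128 and 0.621 CPM at 3 µM. Cultures 1 and 2 began high and ended near 0, while culture 3 began low and changed little. The values at 3 µM rest on 0, 2 and 9 counts.

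The log2 fold change of Cldn10 was -4.33 ± 1.21 at 1.5 µM (edgeR adjusted p = 0.0242) and -4.2 ± 1.22 at 3 µM (edgeR adjusted p = 0.0136). At 1.5 µM the call was lost without the DMSO library of culture 1 (0.0511) or 2 (0.0663) and without the 1.5 µM library of culture 1 (0.0889) or 2 (0.0906). At 3 µM it was lost without the 3 µM library of culture 2 (0.0545) and without all libraries of culture 1 (0.0942) or 2 (0.144). Without the library of culture 3 at the dose compared, the value was -5.93 at 1.5 µM and -6.00 at 3 µM. Of the 9 basal or myoepithelial markers 5 also fell at 3 µM, for example Acta2 by 4.55 and Oxtr by 7.1 on the log2 scale. The other 4, keratins and Trp63, rose. Of all genes 27.7% were called lower and 29.9% higher at that dose. The relation of these markers to Cldn10 was not tested.

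Cldn5, the main claudin of blood vessel endothelium, was lower than DMSO in every culture at each dose, and the difference passed at 1.5 and 3 µM. Its gene is a single exon on chromosome 16 (chr16:18776847-18778260, plus strand; ENSMUSG00000041378). It stood at 14.9, 26.4 and 26.3 CPM in DMSO, 6.3, 9.99 and 22.3 CPM at 1 µM, 2.74, 3.07 and 11.6 CPM at 1.5 µM and 2.04, 3.08 and 3.45 CPM at 3 µM. Both higher doses lay wholly below DMSO, and culture 3 stood above the others at 1 and 1.5 µM. Culture 2 did not fall further from 1.5 to 3 µM, and neither the step from 1 to 1.5 µM (edgeR adjusted p = 0.307) nor that from 1.5 to 3 µM (0.245) passed. The log2 fold change was -1.96 ± 0.616 at 1.5 µM (edgeR adjusted p = 0.0393) and -2.97 ± 0.65 at 3 µM (edgeR adjusted p = 0.00309). Without culture 2 the latter was -2.90 (0.0629). The call at 1.5 µM was lost in 10 of 21 alternatives, including leaving out the DMSO library of culture 2 (0.103) or 3 (0.0868), the 1.5 µM library of culture 1 or 2 (0.127 each), the 1 µM library of culture 2 (0.0546) and the 3 µM library of culture 2 (0.0528). With culture as a block this call was kept. Without the 1.5 µM library of culture 3 the value was -2.94 (0.00689).

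Endothelial markers moved with Cldn5. The 10 markers summed to 331.4, 682.1 and 551.3 CPM in DMSO, 133.3, 235.6 and 447.5 CPM at 1 µM, 53.3, 77.5 and 250.4 CPM at 1.5 µM and 39.6, 83.9 and 122.5 CPM at 3 µM. Culture 3 again had the highest level at 1 and 1.5 µM. At 3 µM, 9 of the 10 fell, where 27.7% of all genes were called lower. Among them Pecam1 fell by 2.53, Cdh5 by 2.84 and Kdr by 3.23 on the log2 scale, and Vwf did not pass. At 1.5 µM 4 of the 10 fell, where 11.8% of all genes were called lower. None of the 10 was at 0 in any whole group. Their part in the fall of Cldn5 was not tested.

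At the lower doses fewer claudins passed. At 1.5 µM against DMSO 2 of 10 were called, both lower (Cldn5 and Cldn10), where 27.3% of all genes passed, 15.4% higher and 11.8% lower. With culture as a block 6 of 10 were called, since Cldn3 (adjusted p = 0.005), Cldn4 (0.0178), Cldn7 (0.00886) and Cldn12 (0.00691) then passed as higher, and 46.7% of all genes passed in that fit. The same 4 had edgeR adjusted p-values of 0.113, 0.121, 0.0502 and 0.0523 without the block. The groups did not overlap for 3 of 10 claudins, against 45.6% of all genes. Leaving out the DMSO library of culture 2, or the 1.5 µM library of culture 1 or 2, left 0 of 10 called, and leaving out the DMSO library of culture 1 gave 5. The share of all genes in these fits is not given here.

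At 1 µM none of the 10 claudins was called by edgeR (0.242% of all genes were), nor by DESeq2. With culture as a block none was called either, where 5.61% of all genes passed. Without the block Cldn10 alone had an unadjusted p under 0.05, as did 11.7% of all genes (log2 fold change -2.74, edgeR adjusted p = 0.36). For 0 of 10 claudins did the groups not overlap, against 19.4% of all genes. Between 1 and 1.5 µM none was called by edgeR or DESeq2, and 0 of 10 had an unadjusted p under 0.05 in edgeR. Of all genes 5.43% were called and 21.5% had an unadjusted p under 0.05. With the block Cldn5 passed in that comparison (log2 fold change -1.21, adjusted p = 0.0323), as did 21.9% of all genes. Groups did not overlap for 2 of 10 there, against 31.2% of all genes. Between 1.5 and 3 µM 2 of 10 were called, Cldn4 higher and Cldn2 lower, where 29.7% of all genes passed (17% higher and 12.7% lower), and 3 of 10 did not overlap, against 42.8%. The comparisons with DMSO share the same control libraries.

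Slopes over dose were also fitted for each culture, and no difference in slope between cultures passed after adjustment. Fitted slopes of Cldn4 on the log2 scale were 0.57, 0.92 and 1.28 per µM in cultures 1, 2 and 3, and those of Cldn1 were 0.17, 0.4 and 0.69. Both genes had their steepest slope in culture 3, whose DMSO library had the lowest level. Cldn8 had slopes of 0.15, 0.38 and -0.27, and Cldn10 of -3.28, -3.04 and -0.24. In an edgeR test of the difference in slope, 4 of 10 claudins had an unadjusted p under 0.05 (Cldn4 0.00202, Cldn1 0.00507, Cldn8 0.00552 and Cldn10 0.0112), as did 8.03% of all genes, but the lowest adjusted p among the 10 was 0.339, for Cldn4. Over all genes 0% passed after adjustment. The slopes of Cldn5 were -0.99, -1.06 and -1.03 (adjusted p of the difference 0.999, edgeR).

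Levels of different claudins were compared as CPM per kilobase of exon, to allow for transcript length. On that scale the 10 claudins together held 179.2 ± 55.6 in DMSO, and 222.3 ± 49.3, 288.2 ± 75.7 and 387.7 ± 38.5 with rising dose (SD, n = 3). With library size as the sole scaling the sum at 3 µM was 339.4 ± 20.4, against 181.5 ± 61.3 in DMSO. In DMSO the order by mean was Cldn3, Cldn7, Cldn4, Cldn1, Cldn5, Cldn12, Cldn8, Cldn2, Cldn23 and Cldn10. At 3 µM it was Cldn4, Cldn3, Cldn7, Cldn1, Cldn12, Cldn8, Cldn23, Cldn5, Cldn2 and Cldn10. Cldn4 went from the third place to the first, and Cldn5 from the fifth to the eighth.

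**Figure D3:**
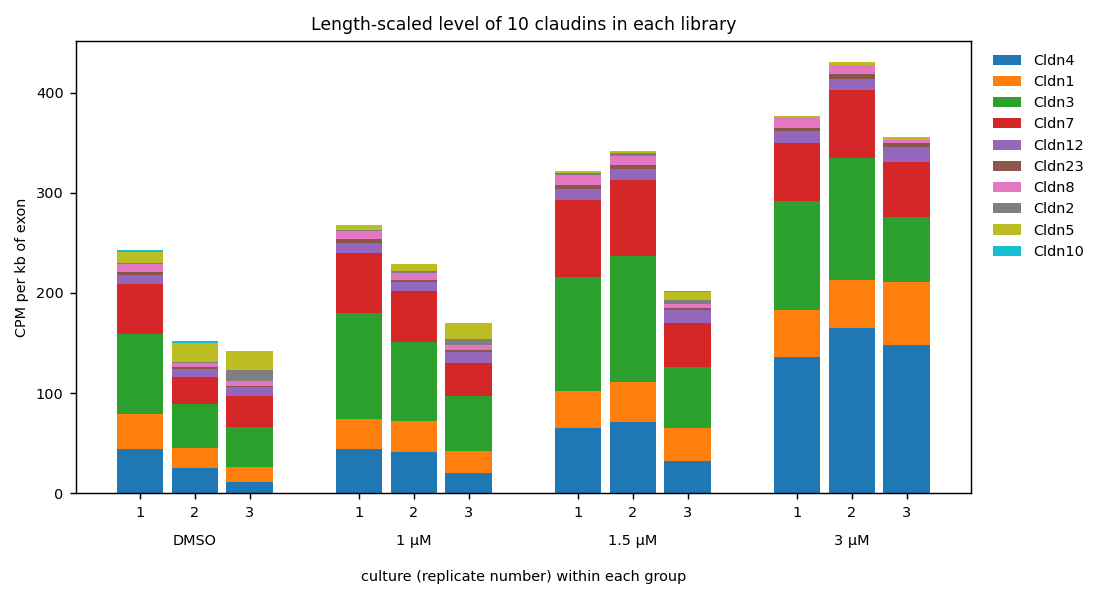
Level of the 10 claudins in each of the 12 libraries as CPM per kb of exon, stacked, with cultures 1, 2 and 3 side by side in each group. The stacks reach 142.2 to 243.1 in DMSO and 355.7 to 430.5 at 3 µM, where the bottom segment, Cldn4, takes 36.0 to 41.6% of each.

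Cldn4 took 14.0 ± 5.69% of the claudin sum in DMSO, and 15.4 ± 3.06%, 19.0 ± 2.77% and 38.7 ± 2.84% with rising dose (SD, n = 3). The 3 µM libraries (36.0 to 41.6%) lay above the DMSO libraries (7.53 to 18.0%). Without the scaling by length the share at 3 µM was 31.8% and that in DMSO 11.5%. The share of Cldn3 was 29.9 ± 2.78% in DMSO and 25.1 ± 5.92% at 3 µM, and these ranges overlapped. That of Cldn1 was 12.8 ± 1.81% in DMSO and 13.8 ± 3.47% at 3 µM, also overlapping. Cldn7 went from 19.8 ± 2.29% to 15.5 ± 0.166%, Cldn5 from 9.87 ± 4.82% to 0.524 ± 0.152% and Cldn2 from 3.06 ± 4.34% to 0.0345 ± 0.0267%. The 4 most abundant barrier claudins (Cldn1, Cldn3, Cldn4 and Cldn7) together made up 76.6 ± 8.87% in DMSO and 93.1 ± 0.381% at 3 µM. These shares are given as description, with no test.

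Cldn4 and Cldn3 are neighbours on chromosome 5 and had different dose patterns. The ratio of Cldn4 to Cldn3 in CPM per kb was 0.544, 0.577 and 0.271 in the DMSO libraries and 0.568, 0.568 and 0.52 at 1.5 µM. At 3 µM it was 1.25, 1.36 and 2.28. The ratio thus stayed below 1 up to 1.5 µM and was above 1 in every library at 3 µM.

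Over the 12 libraries, log2 CPM of Cldn1 and Cldn4 had a Pearson r of 0.95 and that of Cldn3 and Cldn7 an r of 0.94, while Cldn4 and Cldn5 had -0.9 and Cldn4 and Cldn2 -0.87. These are descriptions over 12 libraries that share 3 animals and a dose series. By the same measure, the genes outside the family most like Cldn4 among 12439 tested genes with a mean of at least 50 counts were Tmem63b (r = 0.984), Mta3 (0.98) and Prrg4 (0.98). Those most like Cldn1 were Itgb4 (0.971), Atg4b (0.969) and Nfe2l3 (0.969). For Cldn2 they were Bcl2 (0.981), Igfals (0.962) and Osr1 (0.959), and for Cldn10 they were Rbpms (0.943), Csmd1 (0.917) and Ntrk2 (0.91). Bcl2 shared the late fall of Cldn2, with mean levels of 31.3, 33.3, 32.7 and 15.0 CPM from DMSO to 3 µM.

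The table held 15 rows of other claudin family members, of which 5 passed the filter, and at 3 µM 2 were called higher and 2 lower, where 57.5% of all genes were called (29.9% higher and 27.7% lower). The pair with the most counts was Cldnd1, a claudin domain protein, and Cldn15, a cation channel former of the gut. The row of Cldnd1 carries the symbol Cldn25 in the deposited table, and its identifier, ENSMUSG00000022744, is Cldnd1 in GENCODE M21. Cldnd1 went from 55.8 ± 7.13 CPM in DMSO to 118.3 ± 3.73 CPM at 3 µM (SD, n = 3; log2 fold change 1.08 ± 0.123, edgeR adjusted p = 5.7e-05). Cldn15 stood at 4.58, 25.2 and 20.0 CPM in DMSO, 1.93, 4.34 and 6.82 CPM at 1 µM, 0.828, 1.46 and 2.38 CPM at 1.5 µM and 0.549, 0.642 and 1.1 CPM at 3 µM. It was lower at each successive dose in all 3 cultures, as were 9.68% of all genes tested, with a log2 fold change of -4.42 ± 0.748 at 3 µM (edgeR adjusted p = 0.000693). The other called rows, chosen for naming after their values were seen, were Cldn6 (log2 fold change 2.42, adjusted p = 0.00423, edgeR; 4.96 ± 2.12 CPM at 3 µM) and Cldn34c1 (-1.56, adjusted p = 0.000164), which belongs to a family of near copies whose reads may not be told apart.

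Of the genes that build tight junctions together with claudins, 32 rows were found for a list of 31 names and 30 were tested. At 3 µM 8 rose and 10 fell (5 and 13 with library size as the sole scaling), with a median log2 fold change of 0.14. Of all genes 57.5% were called in that comparison (57.4% with library size as the sole scaling). Tjp1 and Ocln were picked for naming after their values were seen. Tjp1 rose by 0.48 on the log2 scale (edgeR adjusted p = 0.00035), while Ocln, which codes for the strand protein occludin, did not pass (0.39, adjusted p = 0.221). The largest rises among the called genes of this list were those of Ybx3, a factor that binds ZO-1 (1.5 ± 0.071, edgeR adjusted p = 8.69e-07), and of the apical polarity genes Crb3 (1.41 ± 0.26, adjusted p = 0.00112) and Pard6b (1.23 ± 0.168, adjusted p = 0.000179). Pard6b stood at 17.1, 11.9 and 13.8 CPM in DMSO and at 30.0, 35.6 and 35.0 CPM at 3 µM, so that its 3 µM libraries all lay above those of DMSO.

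The largest falls among these genes were those of Jam3 (-2.21 ± 0.68, edgeR adjusted p = 0.0183) and Jam2 (-2.2 ± 0.708, adjusted p = 0.0224), junctional adhesion molecules, and of the scaffold gene Mpdz (-1.96 ± 0.211, adjusted p = 3.91e-05). Jam2 went from 14.4, 26.9 and 41.7 CPM to 1.8, 4.17 and 12.1 CPM, and Jam3 from 7.07, 15.6 and 16.4 CPM to 1.02, 2.57 and 4.83 CPM. Both are known from endothelial cells too, the endothelial markers fell in the same libraries, and their part was not tested. The call of Jam3 was lost without the 3 µM library of culture 1 (adjusted p = 0.0548) or 2 (0.0584), and that of Jam2 without either of these (0.0584 and 0.0767) or without the DMSO library of culture 3 (0.0723). Without the 3 µM library of culture 3 the values were -2.86 for Jam3 and -3.21 for Jam2. Without culture 2 the partner genes had 10 calls in place of 18, and Jam2 (edgeR adjusted p = 0.21) and Jam3 (0.203) were among those lost. The share of all genes in that fit is not given here. At 1.5 µM 5 of the 30 partner genes rose and 1 fell, where 27.3% of all genes were called. At 1 µM none was called by edgeR, and 3 of the 30 had an unadjusted p under 0.05, as did 11.7% of all genes.

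**Figure D4:**
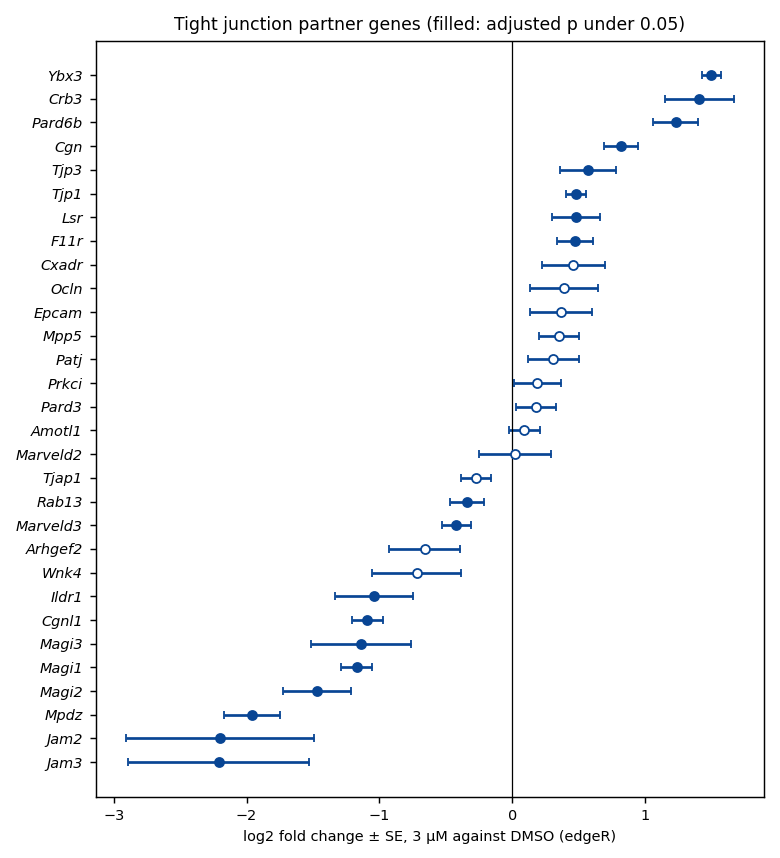
Log2 fold change with SE at 3 µM against DMSO (edgeR) for the 30 tested partner genes of the tight junction, ordered by size, with filled points for an adjusted p under 0.05. Filled points lie on both sides of 0, 10 below and 8 above, from Jam3 at -2.21 to Ybx3 at 1.5.

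Transcription factors known to act on junction genes were listed as well, and 14 of 15 rows found were tested. At 3 µM 8 rose and 1 fell, where 57.5% of all genes were called, 29.9% higher and 27.7% lower. Grhl3, a grainyhead factor of surface epithelium, went from 1.69, 0.914 and 1.72 CPM in DMSO to 76.4, 68.9 and 45.3 CPM at 3 µM (log2 fold change 5.41 ± 0.326, edgeR adjusted p = 1.87e-06). Klf4, a factor of the epidermal barrier, rose from 25.5, 18.1 and 16.4 CPM to 370.2, 365.7 and 220.1 CPM (3.99 ± 0.299, adjusted p = 5.56e-06). The groups of both genes were far apart in every culture. Zeb2, a repressor of epithelial junction genes, was the one that fell, from 107.7, 254.0 and 158.2 CPM to 5.8, 19.6 and 41.8 CPM (-2.95 ± 0.63, adjusted p = 0.00273). Without culture 2 the Zeb2 call was lost (adjusted p = 0.0929), and without the 3 µM library of culture 3 its value was -3.78. Zeb2 is also a gene of fibroblasts and immune cells, of whose markers 1 of 8 and 5 of 6 tested fell at 3 µM, and their part in its fall was not tested.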

How the data were processed

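Polyadenylated RNA of the 12 libraries was prepared with a stranded TruSeq kit, per the labels' protocols. Per gene with an Ensembl identifier, the authors deposited a raw read count for each library. Their second deposited table holds log2 values, which are log2(x + 1) with x the count per 10 M counts (M, mega) of the library. The log2 values recomputed from the counts differed in 0 cells, so tests used the counts. The submitters' processing notes name TopHat2 2.1, Bowtie 1.1.0, HTSeq, DESeq2, GRCm38 and mm10. The strand setting and annotation release are not given in the sources used here. Of 25210 identifiers, 24902 are in GENCODE M21 (GRCm38), 99.996% of them on the same chromosome, and exon lengths came from that release. Every column with values per sample matched a sample's labels (0 left over).

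Counts were filtered with filterByExpr on the 4 groups, scaled by TMM (trimmed mean of M-values) and fitted with 1 mean per group over all 12 libraries (edgeR 4.0.16, R 4.3.3, glmQLFit robust, glmQLFTest, two-sided), with adjustment over 15316 genes and a threshold of 0.05. The fit was also run on simulated counts with 200 changed genes and no effect of culture on the group comparison. In the data 57.5% of all genes were called at 3 µM, so that run does not check such a case. CPM are mean ± SD over 3 libraries, and ratios within a culture used CPM plus 0.5. Slopes per culture came from a model of culture, dose and culture by dose. No molecular identifiers are described, so precision from counts covers counting error only.

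Replicate numbers pair the libraries, since each is 1 animal. Deviations from group means correlated at 0.177 to 0.84 (median 0.505) in 18 pairs of libraries with the same number, against a median of -0.212 in 36 others. The blocked value is given beside results whose call it changed or whose count it moved by over 1.5 times. All other alternatives for differences between groups were fitted without the block. Pairs of libraries within a group differed by at least 12.8 in chi-square per degree of freedom, so none was treated as a copy.

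The members and lists were chosen with earlier results of these data known. Named were all 10 claudins, and by size of change at 3 µM among called genes with a mean of at least 50 counts, 3 partner genes and up to 2 junction factors in each direction, the 3 genes most like each of 4 claudins, and the 2 other claudin rows with the most counts. Alternatives were a replicate block, no filter, library size only, DESeq2 size factors, DESeq2 1.42.0, a fit of 2 groups, leaving out each library, and, added after seeing the data, leaving out each culture and shares without length scaling. RefSeq promoter windows (GRCm38.p6) were found for 8 of the 10 claudins. Claudin proteins were not analysed here, and some genes of the partner list are not reported here.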

Additional observations from a re-analysis of the deposited data

How the results depend on the processing

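For 3 µM against DMSO, the count of 8 called claudins was 9 with the replicate block, 8 with DESeq2, 6 with no filter, 5 with library size only, 7 with DESeq2 size factors and 6 with those 2 groups alone. Of all genes 68.9% passed with the block, 57.4% with library size only and 57.1% with DESeq2 size factors. Leaving out 1 library gave 5 to 9 called claudins, and leaving out culture 1, 2 or 3 gave 7, 2 or 7. For 1.5 µM against DMSO, the count of 2 was 6 with the replicate block, 1 with no filter, 4 with library size only, 3 with DESeq2 and 1 with those 2 groups alone. Of all genes 46.7% passed with the block and 29% with library size only. Leaving out 1 library gave 0 to 5 called claudins, and leaving out culture 1, 2 or 3 gave 1, 0 or 6. For 1.5 against 1 µM, the replicate block gave 1 in place of 0, where 21.9% of all genes passed. For 3 against 1.5 µM, the count of 2 was 1 with no filter, with library size only and with DESeq2 size factors, 0 to 3 with 1 library left out, and 0 without culture 1 or 2. It stayed 2 with the block, where 46.7% of all genes passed. In that comparison 32.1% of all genes passed with library size only and 29.2% with DESeq2 size factors. The partner genes had 18 calls, 23 with the block, 13 to 22 with 1 library left out and 10 without culture 2. Fits without a culture have fewer libraries, and any further cause was not tested. The share of all genes is not given here for fits with a library or a culture left out, with no filter, with DESeq2 or with 2 groups alone. At 1 µM and for the slopes, 0 claudins were called in every alternative run. The block called 5.61% of all genes at 1 µM. The block changed the calls of Cldn3 at 3 µM, of Cldn3, Cldn4, Cldn7 and Cldn12 at 1.5 µM and of Cldn5 between 1 and 1.5 µM, and no other claudin call.

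Library size only moved the median log2 fold change of all genes at 3 µM to -0.23, with 3395 higher and 5404 lower in place of 4575 and 4239. At 3 against 1.5 µM it moved it to -0.28, with 1050 higher and 3860 lower in place of 2601 and 1943. The log2 fold change of Cldn2 at 1.5 µM became 1.18 (edgeR adjusted p = 0.0256) without culture 3. Another 37 changes of sign were of values called neither in that alternative nor in the main fit (1 mean per group over all 12 libraries, TMM). Low counts limit Cldn2 and Cldn10 at 3 µM, with at most 11 and 9 counts per library.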

Other observations

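Cldn20 is a scarce claudin outside the list of 10. Its levels were 0.355, 0.305 and 0.215 CPM in DMSO, 0.609, 0.682 and 0.568 CPM at 1 µM, 0.446, 0.922 and 0.521 CPM at 1.5 µM and 0.157, 0.193 and 0.207 CPM at 3 µM. The middle doses lay above DMSO in all 3 cultures and the highest dose below it, an order that Cldn2 showed in cultures 1 and 2 only. Between 1.5 and 3 µM Cldn20 fell by 1.74 on the log2 scale (edgeR adjusted p = 0.0103), and at 1.5 µM against DMSO its log2 fold change was 1.11 (edgeR adjusted p = 0.0506). At 3 µM against DMSO its log2 fold change of -0.63 did not pass (edgeR adjusted p = 0.357). These values rest on 2 to 24 counts per library, and the gene was chosen for naming after its values were seen.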
